A study of Mus musculus with 12 samples.

Results

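The cells described here are light zone B cells of the germinal center, divided by whether a transcript of Myc was found in them. Of 6000 cells in the deposited matrix, the authors annotated 2213 as LZ (light zone). The comparison was limited to the 1798 LZ cells with 4000 to 12000 UMIs (unique molecular identifiers, each standing for 1 captured transcript), which left out 245 shallower and 170 deeper LZ cells. A cell with at least 1 Myc UMI was called Myc-positive (293 cells) and a cell with 0 Myc UMIs was called Myc-negative (1505 cells). Mice 1, 2 and 3 gave 81, 89 and 123 Myc-positive cells and 357, 486 and 662 Myc-negative cells. Raw counts were summed per mouse and side, so that each mouse gave 1 pair of sums, and Myc itself was left out of every test. The cells were thus chosen by the UMI count of Myc and by the authors' LZ label, and neither is a result. The counts of all other genes were not used to divide the cells.

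All cells came from 3 mice primed with NP-KLH (the hapten NP on the carrier protein KLH) in Sigma Adjuvant System. The mice were given tamoxifen by gavage, and the draining lymph nodes were taken 5 days later, on day 16 of the response. Live IgD-negative cells that carried the reporter eYFP were sorted, and droplet-based 5' single-cell RNA sequencing was run on plasma cells and other B cells in separate wells, with a barcoded CD45 antibody marking the mouse. The 12 libraries of the labels fall into 6 groups (transcriptome, hashtag and B cell receptor libraries of plasma cells, PC, and of non-PC), and each library pools the same 3 mice. No group without immunization or without tamoxifen enters the comparison. The sources used here do not give the strain, the reporter alleles, the Cre driver or the age of the mice.

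Germinal centers cycle B cells between a dark zone, where cells divide and mutate their antibody genes, and a light zone, where they take up antigen and compete for help from T follicular helper cells. Myc, a transcription factor that pairs with Max on E-box sequences and promotes cell growth, is known to be switched on in a minority of light zone cells that have received signals through the B cell receptor and CD40, a receptor that engages NF-kB. NF-kB is a family of transcription factors held in check by inhibitory proteins of the IkB group. Cells so selected are known to re-enter the cell cycle and return to the dark zone.

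Within the depth window, 16.3% of LZ cells had a Myc UMI (Wilson 95% interval 14.7% to 18.1%), with 18.5%, 15.5% and 15.7% in mice 1, 2 and 3. The same share was 9.88% in DZ (dark zone) cells (interval 8.72% to 11.2%), given for comparison. What part of it comes from free RNA or from low expression was not tested. The median depth was 6361.5 UMIs per LZ cell and 7184.5 per DZ cell, and the part of depth in these shares was not tested. With at least 2 Myc UMIs the shares were 6.62% in LZ cells (interval 5.56% to 7.86%) and 1.81% in DZ cells (interval 1.34% to 2.44%). Intervals cover counting error only. Among the Myc-positive LZ cells 174 had exactly 1 Myc UMI and 119 had more, with 19 as the highest count. A single UMI is therefore what placed most of these cells, and some Myc-negative cells may hold Myc RNA that was not captured. At the lower limit of the window, 5.61% of the 107 LZ cells with 3500 to 3999 UMIs and 12.0% of the 167 with 4000 to 4499 had a Myc UMI. At the upper limit the shares were 19.4% of 67 cells with 11000 to 12000 UMIs and 31.2% of 48 cells with 12001 to 13000.

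The LZ label was set beside marker genes. All 14 light zone markers were higher in LZ than in DZ cells and 0 of 12 dark zone markers were. Of the 14, Egr3 was near 0 (0.115 ± 0.198 CPM in LZ cells). The markers are read from the RNA of the same cells as the authors' scores, so this is no independent check of the label. The authors' LZtoDZ state (165 cells) begins at an activation score of 0.581 and the LZ state ends at 0.577, so cells with the highest activation score had been taken out of the LZ state, and 21 LZ cells lay within 0.02 of that limit. None of the LZ cells carried a barcode of the second barcode series, and 0 barcodes were shared between the series. The summed counts held 587472 to 906526 UMIs per mouse for Myc-positive cells and 2322740 to 4328494 for Myc-negative cells.

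Myc-positive cells were deeper and more often in cycle than Myc-negative cells of the same mouse, 2 features that stand beside every result below. The median cell of the Myc-positive side had 7132, 7799 and 7233 UMIs in mice 1, 2 and 3, against 6146, 6476.5 and 6023.5 on the Myc-negative side, and the sides did not overlap. A deeper cell has more chances to show a Myc UMI. LZ cells that the authors called G1, S and G2M had median depths of 5588, 7710 and 8682 UMIs. Their shares with a Myc UMI were 12.4%, 20.7% and 28.0% (means over mice). The part of detection and of phase in the depth gap was not tested. By the authors' phase call, 57.0% ± 8.28 (SD, n = 3 mice) of Myc-positive cells and 39.8% ± 4.49 of Myc-negative cells were in S or G2M, higher in 3 of 3 mice. With Myc-negative cells drawn to the same depth, the shares were 56.6% and 50.2%, again higher in 3 of 3 mice. The authors' activation score had a mean of 0.347 over the medians of the mice in Myc-positive cells and 0.278 in Myc-negative cells, higher in 3 of 3 mice, and 0.347 against 0.300 at matched depth. The authors' cluster 5 held 8.39% ± 3.81 of Myc-positive and 1.08% ± 0.42 of Myc-negative cells. With 3 pairs, an exact permutation test (two-sided, sides swapped within mice) cannot give a p below 0.25, so none of these shares could pass a threshold of 0.05.

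Antibody classes were near in share between the sides. IgG1 was the most abundant heavy chain class in 24.2% ± 9.67 of Myc-positive and 26.6% ± 8.76 of Myc-negative cells (SD, n = 3 mice), and IgM in 45.5% ± 3.43 and 46.6% ± 2.52. IgG1 was lower on the Myc-positive side in 3 of 3 mice, with a mean difference of -2.41 points (SD 1.58), and had an exact permutation p of 0.25, the smallest possible, against 0.5 for IgM. Lambda light chains were the most abundant in 53.3% ± 7.29 and 51.8% ± 4.12 of cells (exact permutation p = 0.75). Mitochondrial transcripts made up 1.87% of UMIs on both sides. RNA of other cell types was low: 2.86% of Myc-positive and 1.04% of Myc-negative cells had at least 2 UMIs of the marker lists of erythroid, stromal, myeloid, NK and T cells, with Apoe, found at 2.342 UMIs per DZ cell, not counted. The summed T cell markers ranged from 2.84 to 7.72 CPM (counts scaled to the same total) in Myc-positive and from 2.58 to 3.93 CPM in Myc-negative sums, and 7 of 10 T cell markers in the matrix were at 0 in the Myc-positive cells.

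**Figure D1:**
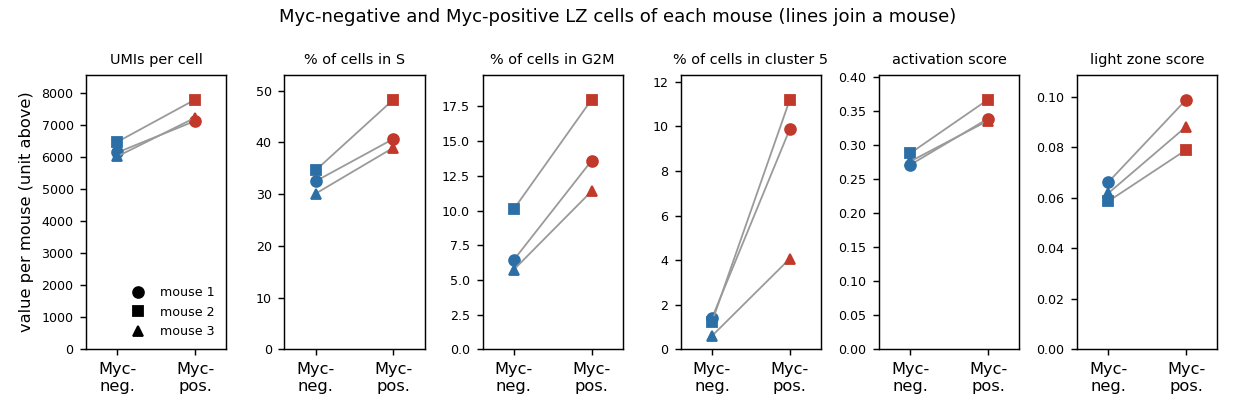
Properties of Myc-negative and Myc-positive LZ cells, 1 point per mouse with lines joining the sides of a mouse and the unit of each panel in its title. Median UMIs per cell rise from 6023.5 to 6476.5 on the Myc-negative side to 7132 to 7799 on the Myc-positive side, and the shares of cells in S and in G2M are each higher in all 3 mice.

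The genes that separated the sides most were inhibitors and targets of NF-kB, AP-1 factors and early activation genes, all higher in Myc-positive cells. This ranking covers genes with at least 50 CPM on the higher side, outside the immunoglobulin and predicted genes. Of 8027 genes tested, 190 were higher (2.37%) and 127 were lower (1.58%) at an adjusted p under 0.05 by edgeR's quasi-likelihood test with the mouse as a block, 3.95% in all. The median log2 fold change over all genes was 0.00 after rounding. The 2 sides did not overlap between mice in 1677 genes, or 20.9% of those tested, so a gap between sides alone is common. The fold changes below are log2 differences, Myc-positive minus Myc-negative, with the standard error of the fit, and levels are CPM of the sums. Replicates are the 3 mice, which the hashtags separate.

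Nfkbid, an inhibitor protein of the IkB group that acts in the nucleus, reached 95, 152 and 106 CPM in Myc-positive cells of mice 1, 2 and 3, against 22.4, 17.8 and 22.8 CPM in Myc-negative cells. Every Myc-positive value was several times the highest Myc-negative one, and the difference was 2.48 ± 0.17 (edgeR adjusted p = 7.58e-11). Batf, an AP-1 family factor needed for class switching, stood at 171, 95.9 and 161 CPM against 21.1, 26.3 and 29.6 CPM. The sides were far apart in each mouse, with mouse 2 the lowest of the Myc-positive ones (2.43 ± 0.16, edgeR adjusted p = 3.56e-11). Tnfsf9, the ligand of the co-stimulatory receptor 4-1BB, stood at 91.5, 113 and 83.8 CPM against 22.4, 19.3 and 14.9 CPM. Its difference was 2.37 ± 0.17 (edgeR adjusted p = 8.76e-11), again without overlap.

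Pim1, a survival kinase, had 304, 253 and 224 CPM in Myc-positive cells against 77.3, 75.8 and 72.4 CPM. The Myc-negative values lay within a few CPM of each other, and the difference was 1.77 ± 0.10 (edgeR adjusted p = 1.31e-12). Cd69, an activation antigen that holds cells in lymphoid tissue, had 114, 87.5 and 82.6 CPM against 34.7, 22.6 and 25.2 CPM (1.79 ± 0.15). Mouse 1 was the highest on both sides and the sides did not overlap. Nfkbia, which encodes the inhibitor IkB-alpha, was the most abundant of these genes, at 705, 590 and 685 CPM against 213, 199 and 210 CPM (1.66 ± 0.06, edgeR adjusted p = 3.13e-16). The remaining genes among the 15 with the largest increase were Nfkbiz, another nuclear IkB protein (2.04), Icam1, an adhesion molecule (1.46), Siah2, a ubiquitin ligase (1.43), Birc3, an inhibitor of apoptosis (1.29), Tgif1, a homeobox repressor (1.28), Junb of the AP-1 family (1.18), Traf1, an adaptor of TNF receptors (1.17), Bcl3, an IkB protein that can activate transcription (1.15), and Bcl2a1b, a survival protein of the BCL2 family (1.15). Bcl2a1b has near-identical copies among which reads can be split, so its own value is uncertain. All 15 were higher in 3 of 3 mice, which was a condition for naming them. Their sides did not overlap, which a choice of the largest differences favours. The 15 were ranked among genes with at least 50 CPM in Myc-positive cells. Some called genes below that floor, such as Nr4a1 (2.92) and Irf4 (2.56), rose by more.

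**Figure D2:**
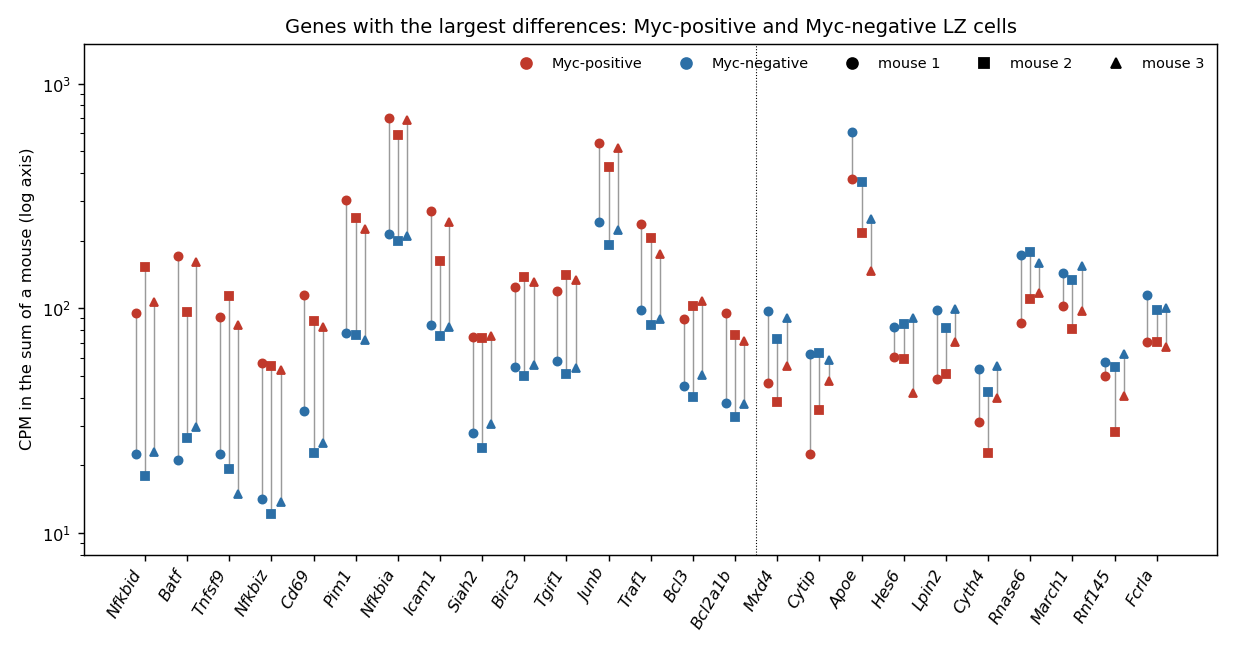
CPM (log axis) of the 15 genes with the largest increase and the 10 with the largest decrease in Myc-positive LZ cells, 1 point per mouse and side. Both are ranked among genes with at least 50 CPM on the higher side, outside the immunoglobulin and predicted genes. The Myc-positive points of Nfkbid, Batf and Tnfsf9 lie between 83.8 and 171 CPM and the Myc-negative ones between 14.9 and 29.6 CPM, while the points of Apoe overlap between sides because mice differ.

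NF-kB subunits and CD40-induced genes were higher together. Of the 25 members tested, 17 were higher and 0 lower, with a median of 0.69, against 2.37% of genes higher and a median of 0.00 over all genes. Among the subunits, Nfkb2 (0.90), Relb (0.52) and Rel (0.65 ± 0.09) were higher, whereas Nfkb1 had 0.05 (edgeR adjusted p = 0.954) and Rela 0.07, neither past the threshold. Of the IkB proteins of the list, Nfkbia, Nfkbid, Nfkbie (0.62) and Bcl3 were higher and Nfkbib (0.38) was not called. Tnfaip3, which encodes the ubiquitin-editing inhibitor A20, rose by 1.8 ± 0.23. Cd40 itself had 169, 171 and 168 CPM against 103, 95.4 and 116 CPM, without overlap (0.69 ± 0.10). Cd83, a light zone marker that stabilizes MHC class II, had 844, 711 and 824 CPM against 510, 410 and 447 CPM. The sides did not overlap, and the gene rose by 0.80 ± 0.05 (edgeR adjusted p = 4.34e-11). Ebi3, a subunit shared by cytokines of the IL-12 family (1.01), and Marcksl1 (0.51) were also higher. Traf3, an inhibitor of the alternative NF-kB pathway (-0.02), Map3k14, the kinase it restrains (-0.54), and Icosl, the ligand of ICOS (0.00), did not pass the threshold. Bcl2l1, which encodes Bcl-xL, was higher (1.12) but was not called without mouse 1 (0.95, edgeR adjusted p = 0.124) or mouse 2 (0.87, 0.229). Relb was not called without mouse 2 (edgeR adjusted p = 0.405) or 3 (0.0563), Nfkbie without mouse 3 (0.0621) and Ebi3 without mouse 2 (0.0578). With 1 mouse left out, 15 or 16 members were higher.

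The promoters of this group were read for the NF-kB consensus. RefSeq windows of 250 bases before the start, in the build GRCm38.p6, were found for 6133 of the 8027 tested genes. The consensus, searched on both strands, was in the window of 6 of 14 list members that were higher (42.9%) and 8 of 20 that were tested (40.0%), against 8.46% of all tested genes and 7.01% of all 27025 RefSeq windows. The share was thus as high among all tested members as among those that were higher. The list was put together around NF-kB, so a high share among its members is partly set by that choice. Over all higher genes it was 14.4% (20 of 139) and over all lower genes 11.1% (8 of 72). Of the 15 genes with the largest increase only 1 of 11 with a window held it, which was Nfkbia. Below are the windows of Tnfaip3 (chr10:19015411-19015660, minus strand), Nfkbia (chr12:55492648-55492897, minus strand) and Ebi3 (chr17:55952373-55952622, plus strand), written 5' to 3' in the direction of the gene up to the base before its start. They show the match in members that were higher, and the capitals mark it.
Tnfaip3: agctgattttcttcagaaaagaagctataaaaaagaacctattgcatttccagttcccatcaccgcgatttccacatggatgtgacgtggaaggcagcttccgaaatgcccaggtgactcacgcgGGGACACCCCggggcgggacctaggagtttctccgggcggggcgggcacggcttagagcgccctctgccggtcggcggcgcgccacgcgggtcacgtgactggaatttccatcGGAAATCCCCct
Nfkbia: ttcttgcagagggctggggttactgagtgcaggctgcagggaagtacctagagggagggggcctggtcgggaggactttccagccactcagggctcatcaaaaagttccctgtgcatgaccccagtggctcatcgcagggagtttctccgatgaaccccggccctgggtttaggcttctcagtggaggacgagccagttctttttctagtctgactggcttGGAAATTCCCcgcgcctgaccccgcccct
Ebi3: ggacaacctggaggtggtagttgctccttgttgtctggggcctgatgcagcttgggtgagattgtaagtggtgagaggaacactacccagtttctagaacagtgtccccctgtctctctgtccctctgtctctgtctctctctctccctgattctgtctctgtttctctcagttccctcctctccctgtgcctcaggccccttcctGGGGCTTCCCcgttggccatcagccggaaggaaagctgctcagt
Tnfaip3 has 2 matches, whose first bases lie 125 and 12 bases before the start, and the match of Nfkbia begins 29 and that of Ebi3 44 bases before it. A match is a description of letters and not a site of binding.

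Immediate early genes were higher in part. Of 16 tested, 8 were higher and 0 lower (median 0.44). Nr4a1, an orphan nuclear receptor induced by antigen receptor signals, had 25.9, 29.6 and 26.4 CPM against 1.32, 5.13 and 3.73 CPM. Its difference of 2.92 ± 0.33 rests on 60 UMIs in Myc-positive and 36 in Myc-negative cells. Egr2, a zinc finger factor of the same response, had 57.0, 32.4 and 27.5 CPM against 18.0, 13.6 and 14.9 CPM, and mouse 1 was high among the Myc-positive values (1.26). Egr1 (0.63 ± 0.11), Ier2 (1.14), Dusp2, a phosphatase of MAP kinases (0.64), and Zfp36l1, an RNA-binding protein (0.43), were higher as well, with Junb and Cd69. Fos, a partner of Jun proteins, had 0.04 and was not called.

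Factors tied to Myc in the germinal center were mostly higher. Of 12 tested, 7 were higher and 1 lower (median 0.89). Irf4, a factor whose level steers B cells between germinal center and plasma cell fates, had 19.0, 22.6 and 17.6 CPM against 3.07, 1.51 and 4.89 CPM (2.56 ± 0.38). Ccnd2, the cyclin that drives G1 in B cells, had 38.0, 50.8 and 24.2 CPM against 3.95, 7.25 and 8.15 CPM (2.43 ± 0.29). Both were low transcripts that did not overlap between sides. Il4i1, an amino acid oxidase, rose by 0.98 ± 0.07. Tfap4, a Myc target known to prolong the division of germinal center cells, had 7.80 CPM against 7.13 CPM and was not called (0.13, edgeR adjusted p = 0.930).

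Of the proteins that share Max with Myc, 12 were tested and only Mxd4, an antagonist that binds Max, was called. It had 46.6, 38.1 and 55.1 CPM in Myc-positive and 97.5, 72.8 and 90.4 CPM in Myc-negative cells, without overlap, and fell by 0.88 on the log2 scale (SE 0.14, edgeR adjusted p = 1.91e-04). Max itself had -0.15 and was not called (edgeR adjusted p = 0.575).

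Growth genes that passed the test did so with smaller differences. Of 59 tested genes of ribosome biogenesis and the nucleolus, 15 were higher and 0 lower, with a median of 0.35. Ncl, which encodes nucleolin, had 717, 868 and 696 CPM against 624, 614 and 595 CPM. The sides did not overlap and mouse 2 was the highest Myc-positive one (0.31 ± 0.06, edgeR adjusted p = 8.01e-04). Gnl3, which encodes nucleostemin, had 65.6, 71.9 and 49.6 CPM against 26.8, 29.6 and 28.4 CPM (1.11 ± 0.17), the largest increase of the list. Npm1, nucleophosmin, rose by 0.24 ± 0.05, and Nop16 (0.57), Nop56 (0.51), Nop58 (0.52), Fbl (0.46) and Dkc1 (0.52), proteins of pre-ribosomal particles and small nucleolar RNPs, were also higher. Nop56 (edgeR adjusted p = 0.148) and Dkc1 (0.402) were not called without mouse 1. Nolc1 (0.67) was not called without mouse 2 (0.31, edgeR adjusted p = 0.479), and Mrto4 (0.60) was not called without mouse 1 (0.146) or mouse 2 (0.083). With 1 mouse left out, 10 to 14 genes of the list were higher.

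Of 25 genes listed as initiation and elongation factors, 5 were higher and 0 lower (median 0.18). They were Eif4a1, the helicase of the cap-binding complex (0.34 ± 0.05), Eif2s1 (0.39), Eif5a (0.26), Eif1a (0.57) and Eef1e1 (0.53). Eef1e1 was listed by its name, and its place among elongation factors was not checked. Eif1a was not called without mouse 2 (edgeR adjusted p = 0.0566) or 3 (0.0805), nor was Eef1e1 (0.435 and 0.0872), and 3 genes of the list were higher without mouse 2. Of 21 aminoacyl tRNA synthetases 0 were called in either direction (median 0.13), and of 77 mitochondrial ribosomal proteins 0 were (median 0.08). Chaperones gave 6 higher of 18 (median 0.20): Hspa9 (0.61), Cct3 (0.36), Hspd1 (0.32), Hsp90aa1 (0.27), Hspa8 (0.22) and Hsp90ab1 (0.20). Without mouse 1 Hspd1 was not called (0.22, edgeR adjusted p = 0.307), and Cct3 was lost without mouse 1 (0.0671) or 2 (0.343) and Hsp90aa1 without mouse 2 (0.137) or 3 (0.125).

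Metabolic genes moved in few members. Srm, which makes the polyamine spermidine, had 111, 100 and 76.0 CPM against 50.1, 55.8 and 50.5 CPM (0.84 ± 0.14), without overlap. Of the 35 nucleotide, one-carbon and polyamine enzymes tested, the other higher ones were Phgdh (0.39), of serine synthesis, and Impdh2 (0.30), of guanine nucleotide synthesis, and 0 were lower (median 0.23). Phgdh was not called without mouse 3 (edgeR adjusted p = 0.0595), and Impdh2 was lost without any 1 of the mice (0.104, 0.0755 and 0.173). Of 10 transporters, Slc7a5, an amino acid transporter (1.0), Slc43a3 (0.70) and Slc38a2, a glutamine transporter (0.54), were higher and 0 lower. Of these, Slc38a2 remained called without each mouse, whereas the adjusted p ranged from 0.0626 to 0.366 for Slc7a5 and from 0.0655 to 0.261 for Slc43a3 with a mouse left out. Of 15 glycolysis genes only Ldha (0.18) was higher and 0 lower (median 0.01), and it was not called without mouse 2 (0.142) or 3 (0.0790). Of 30 genes of the respiratory chain and mitochondrial import, C1qbp (0.40), Phb (0.36), Cycs (0.33), Cyc1 (0.32) and Tomm20 (0.32) were higher and 0 lower (median 0.08). Without mouse 2 only 1 gene of this list was called, and without mouse 1 it was 2. Odc1, the first enzyme of polyamine synthesis, had 0.13 and was not called (edgeR adjusted p = 0.638). Of 80 cytosolic ribosomal protein genes, 0 were higher and 12 lower, by small steps such as Rps27 (-0.15) and Rpl37a (-0.14). The call of Rps27 was lost without mouse 1 (edgeR adjusted p = 0.0502) or 3 (0.0744), and that of Rpl37a without mouse 3 (0.0963). Without mouse 3, 0 of the 80 were called.

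**Figure D3:**
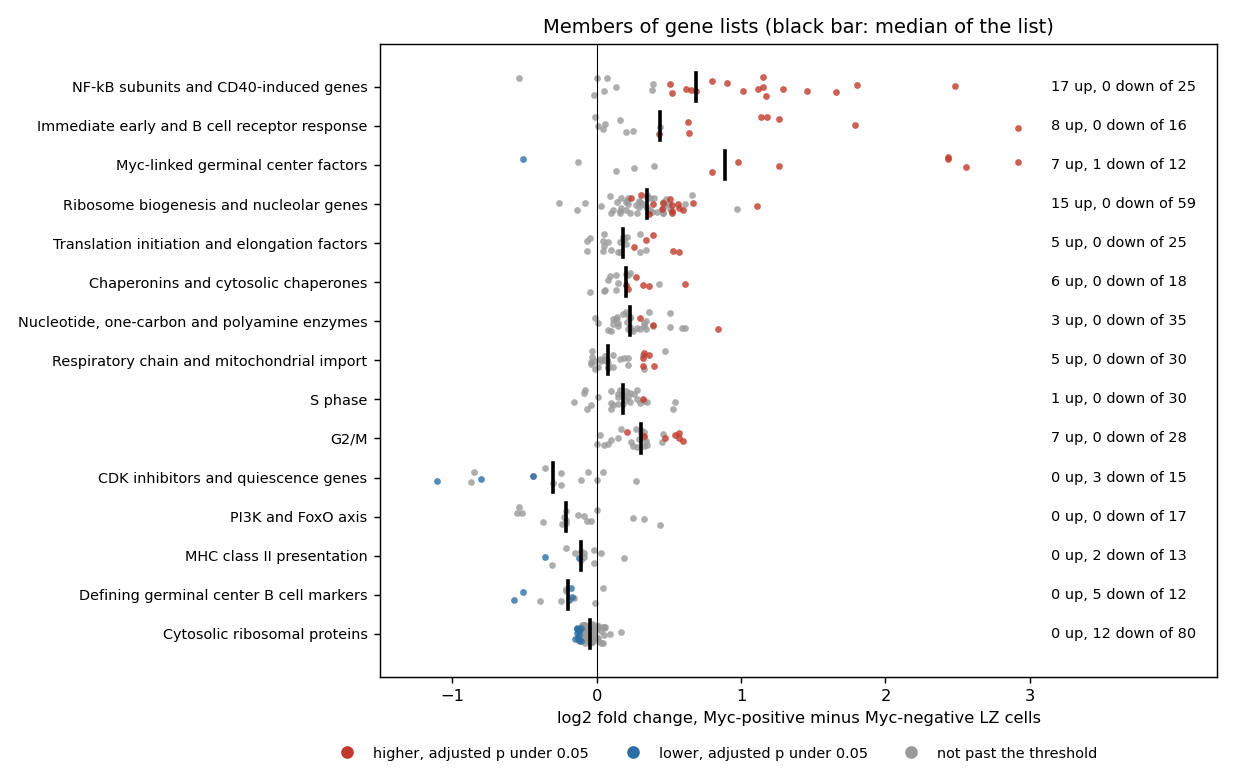
Log2 fold changes, Myc-positive minus Myc-negative LZ cells, of the tested members of gene lists, 1 point per gene, coloured by whether the gene passed the threshold, with a black bar at the median of each list. The median is 0.69 for NF-kB and CD40-induced genes, 0.35 for ribosome biogenesis and -0.05 for cytosolic ribosomal proteins.

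The E-box bound by Myc and Max, CACGTG (its own reverse complement, so 1 search covers both strands), was looked for in the same promoter windows. It was in 4 of 22 windows of higher genes from 5 growth lists (ribosome biogenesis, translation, chaperones, nucleotide enzymes and glycolysis; 18.2%), in 14 of 126 windows of all tested genes of those lists (11.1%) and in 9.36% of all tested genes. Over all 27025 RefSeq windows the share was 6.05%. Higher genes held it in 11.5% (16 of 139) and lower genes in 11.1% (8 of 72) of windows. None of the 11 windows of the genes with the largest increase held it. Windows of Eif4a1 (chr11:69672424-69672673, minus strand), Hspd1 (chr1:55088244-55088493, minus strand) and Impdh2 (chr9:108560186-108560435, plus strand) show it in capitals in growth genes that were higher.
Eif4a1: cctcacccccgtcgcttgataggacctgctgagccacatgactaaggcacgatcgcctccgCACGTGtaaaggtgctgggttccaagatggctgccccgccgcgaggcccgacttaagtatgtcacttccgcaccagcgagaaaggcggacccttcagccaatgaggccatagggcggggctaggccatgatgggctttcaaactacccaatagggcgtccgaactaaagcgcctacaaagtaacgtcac
Hspd1: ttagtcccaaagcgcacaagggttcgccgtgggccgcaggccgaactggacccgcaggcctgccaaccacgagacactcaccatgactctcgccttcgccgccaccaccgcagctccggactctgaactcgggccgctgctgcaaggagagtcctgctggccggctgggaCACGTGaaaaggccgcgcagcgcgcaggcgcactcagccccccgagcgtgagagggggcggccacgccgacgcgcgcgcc
Impdh2: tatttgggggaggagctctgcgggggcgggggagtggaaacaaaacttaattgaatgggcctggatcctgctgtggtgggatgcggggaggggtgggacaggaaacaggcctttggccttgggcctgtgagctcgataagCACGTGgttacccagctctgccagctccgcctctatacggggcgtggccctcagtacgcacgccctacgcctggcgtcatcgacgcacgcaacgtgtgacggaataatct
The first base of the E-box lies 189, 80 and 110 bases before the start of Eif4a1, Hspd1 and Impdh2.

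Of the cell cycle genes, those of mitosis passed the test most often. Of 28 G2/M genes 7 were higher and 0 lower (median 0.31), among them Ube2c, which helps degrade mitotic proteins (0.57 ± 0.10), Plk1, a mitotic kinase (0.60), Cdk1, the kinase of mitotic entry (0.57), and Tpx2, a spindle protein (0.54). Plk1 was not called without mouse 1 (0.39, edgeR adjusted p = 0.236) or mouse 3 (0.0592), and Cdk1 (0.0578) and Tpx2 (0.0521) were not called without mouse 2, which left 4 of the 28. Of 30 S phase genes only Mcm3, a subunit of the replicative helicase (0.32 ± 0.07), was higher. Of 17 G1 cyclins, kinases and E2F factors, Ccnd2 and Cks1b (0.44) were higher, and Cks1b was not called without mouse 3 (0.109). Mki67, a marker of cycling cells, had 0.08 (edgeR adjusted p = 0.776). Of 15 inhibitors of CDKs and quiescence genes, Klf2, a quiescence factor (-1.11), Ccng2 (-0.80) and Ypel3 (-0.44) were lower and 0 higher. Klf2 was not called without mouse 2 (-0.66, edgeR adjusted p = 0.413), and neither Ccng2 nor Ypel3 kept its call without mouse 2 (0.196 and 0.106) or mouse 3 (0.129 and 0.129). Ccng2 also lost it without mouse 1 (0.113). Cdkn1b, the inhibitor p27, had -0.11 and was not called (edgeR adjusted p = 0.951).

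Among the 127 lower genes, 33 were immunoglobulin genes, which made up 123 of the 8027 tested and 9 of the 190 higher ones. Among the genes with at least 50 CPM in Myc-negative cells and outside the immunoglobulin and predicted genes, the largest decreases after Mxd4 were those of Cytip, Apoe, Hes6, Lpin2, Cyth4, Rnase6, March1, Rnf145 and Fcrla, from -0.75 to -0.57. Apoe, a lipid carrier protein, had 375, 216 and 147 CPM in Myc-positive and 608, 366 and 249 CPM in Myc-negative cells, lower in 3 of 3 mice although the mice differed so much that the sides overlapped (-0.74 ± 0.07, edgeR adjusted p = 3.90e-08). Apoe gave 503 of the 510 UMIs of the myeloid marker list in Myc-positive cells and 3668 of 3681 in Myc-negative cells, and the other myeloid markers were near 0. Rnase6, a secreted ribonuclease, had 86.3, 110.0 and 117 CPM against 172, 177 and 159 CPM, without overlap (-0.67 ± 0.11). March1, a ubiquitin ligase that lowers surface MHC class II (-0.63), Lpin2, a phosphatidate phosphatase (-0.69), and Fcrla, an Fc receptor-like protein of germinal center B cells (-0.57), kept their calls without each mouse. Cytip was not called without mouse 1 (edgeR adjusted p = 0.0859), Hes6 without mouse 3 (0.153), Cyth4 without mouse 1 (0.0870) or 2 (0.146), and Rnf145 without mouse 2 (0.343) or 3 (0.221).

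Genes that define the germinal center B cell were slightly lower: 5 of 12 (median -0.20) and 0 higher. Bcl6, the master repressor of the germinal center program, had 57.0, 38.1 and 49.6 CPM against 73.8, 66.1 and 72.4 CPM (-0.57 ± 0.15, edgeR adjusted p = 0.0240). Its call was lost without mouse 2 (-0.47, 0.224) or mouse 3 (-0.58, 0.122). Cd79a (-0.19), Cd79b (-0.18) and Ms4a1 (-0.17) were lower by small steps. Without mouse 3, 2 of the 12 were called. Of 13 genes of MHC class II presentation, H2-Oa (-0.36) and Cd74 (-0.12) were lower and 0 higher, and Cd74 was not called without mouse 3 (edgeR adjusted p = 0.129). Cxcr4, the receptor that draws cells to the dark zone (-0.49, adjusted p = 0.206), and Foxo1, a dark zone factor (-0.37, 0.175), did not pass edgeR's threshold, and of 17 PI3K and FoxO genes 0 did (median -0.21). Cxcr5, the receptor for light zone chemokine, was higher (0.67), and Cd86, a co-stimulatory ligand, had 175 ± 16.3 CPM against 159 ± 7.25 CPM (SD, n = 3) and was not called (edgeR adjusted p = 0.567).

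Light zone markers were higher on the Myc-positive side in 7 of 13 and lower in 1, with a median of 0.54, and dark zone markers were higher in 1 of 12 (Cdk1) and lower in 1, with a median of 0.03. The authors' light zone score was higher (0.0888 against 0.0623) and their dark zone score lower (-0.0255 against -0.0117) in 3 of 3 mice. Of 24 genes of the endoplasmic reticulum and unfolded protein response, Hspa5 (0.33) and Hsp90b1 (0.29) were higher, and Hsp90b1 was not called without mouse 1 (edgeR adjusted p = 0.248) or 3 (0.213). The authors' plasma cell score was 0.118 against 0.119. Of 7 memory genes tested, Gpr183, a receptor that guides B cells to follicle borders, was higher (1.27) and Klf2 lower. Gpr183 was not called without mouse 1 (edgeR adjusted p = 0.0730) or mouse 3 (0.0909).

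In cells of equal depth and phase more of the NF-kB and immediate early genes than of the growth genes were called. When Myc-negative cells were drawn to the depth of the Myc-positive cells, as many as there were Myc-positive cells, 45 genes were higher and 14 lower of 6243 tested (0.721% and 0.224%, 0.945% in all). With depth and phase matched, 43 were higher and 13 lower of 6287 (0.684% and 0.207%, 0.891% in all). All 15 genes with the largest increase passed edgeR's threshold in both, with Nfkbid at 2.90 ± 0.30, Nfkbia at 1.79 ± 0.08 and Pim1 at 1.65 ± 0.11 at matched depth. The NF-kB list had 14 higher of 25 (median 0.83) at matched depth and 13 (median 0.82) at matched depth and phase, and immediate early genes 8 of 13 and 6 of 14. With depth and phase matched, Egr2 (0.84, edgeR adjusted p = 0.325), Egr1 (0.72, 0.0596) and Irf4 (2.05, 0.0969) were not called. Of the 10 genes with the largest decrease, Apoe (-0.50) and March1 (-0.63) were called at matched depth and only Apoe (-0.65) with phase matched too, while Mxd4 had -0.71 (edgeR adjusted p = 0.112) and -0.73 (0.0958). Bcl6 had -0.59 (edgeR adjusted p = 0.262) and -0.55 (0.326). Ribosome biogenesis had 0 higher of 56 (median 0.23) at matched depth and 1 of 56 (median 0.25) at matched depth and phase, and translation factors and chaperones had 0 in both. G2/M genes had 0 of 27 (median 0.06) and 0 of 28 (median -0.07). The lower ribosomal protein genes and CDK inhibitors were not called in either. Matched sums hold fewer cells, so a lost call there does not show that a gene did not differ. In the LZ cells of clusters that each hold over 10% of LZ cells, which leaves out cluster 5, 87 of 7908 genes were higher (1.1%) and 41 lower (0.518%), 1.62% in all, and the NF-kB list had 14 higher of 25 (median 0.56), and Ccnd2 (1.52) was not called. The part of depth, phase, cluster 5 and other-type RNA in the remaining differences was not tested beyond these values.

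Within G1 cells and within S and G2M cells the 15 genes were called in each class. The fit tested 7114 genes, and in G1 cells 61 were higher (0.857%) and 14 lower (0.197%), 1.05% in all. In S and G2M cells 44 were higher (0.618%) and 16 lower (0.225%), 0.843% in all. Batf had 2.77 ± 0.23 in G1 and 2.20 ± 0.22 in S and G2M cells, Nfkbid 2.07 ± 0.32 and 2.66 ± 0.27, and Nfkbia 1.47 ± 0.09 and 1.89 ± 0.09. By the interaction test none of the 15 was called between phase classes. Nfkbia (-0.43 ± 0.12), Junb (-0.46 ± 0.15) and Icam1 (-0.30 ± 0.23) had a smaller difference in G1 in all 3 mice. Batf (0.57 ± 0.32) and Cd69 (0.38 ± 0.28) had a larger one in all 3. These sums hold few cells, so a missing call does not show that the classes were alike. The interaction called 5 genes (0.0703%), 3 higher (0.0422%) and 2 lower (0.0281%) in G1, all immunoglobulin variable segments named here after their values were seen: Ighv1-58, Ighv1-78, Igkv12-89, Igkv4-57 and Igkv6-17. Ube2c had -0.36 ± 0.27 in G1 and 0.44 ± 0.15 in S and G2M cells, and Mcm3 0.21 ± 0.14 and 0.07 ± 0.10, none past the threshold. These classes hold the same cells as the comparison above.

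Within the Myc-positive cells, those with at least 2 Myc UMIs (119 cells) differed from those with 1 (174 cells). This split uses the same count of Myc that divided the sides, at a higher limit. Of 4410 genes tested, 45 were higher (1.02%) and 10 lower (0.227%) with more Myc UMIs, 1.25% in all. Of the 15 genes, 14 were higher, all but Bcl2a1b (0.64, edgeR adjusted p = 0.238). Since the 15 were picked for their increase in these same Myc-positive cells, their rise with more Myc UMIs is partly set by the choice. Cells with more Myc UMIs were also deeper, at 7525, 8308 and 7547 UMIs per cell on average in mice 1, 2 and 3 against 7035, 7683 and 7241. At matched depth Siah2 (0.86, adjusted p = 0.454), Nfkbiz (1.56, 0.202) and Bcl3 (1.06, 0.140) lost edgeR's call. Calls were also lost for Siah2 without mouse 2 (0.198) or 3 (0.195), for Nfkbiz without mouse 2 (0.116), for Tgif1 without mouse 3 (0.118) and for Bcl3 without mouse 1 (0.0785) or 3 (0.423). The mean level of Nfkbia was 208 ± 6.96 CPM (SD, n = 3 mice) in cells with 0 Myc UMIs, 363 ± 38.2 CPM with 1 and 1018 ± 104 CPM with 2 or more. The ranges over mice did not overlap between the 3 levels, and the difference between the last 2 was 1.48 ± 0.11 (edgeR adjusted p = 3.18e-06). Pim1 had 75.4 ± 2.24, 166 ± 49.6 and 374 ± 17.8 CPM, with the same order and no overlap.

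The levels with 0 and with 1 Myc UMI overlapped for some of these genes and not for others. Cd69 had 27.6 ± 6.25, 30.6 ± 15.3 and 173 ± 37.9 CPM (2.44 ± 0.27 between the last 2), and its ranges at 0 and 1 UMI overlapped. Batf had 25.7 ± 4.40, 45.7 ± 27.5 and 256 ± 115 CPM, also with overlap at 0 and 1. Its call was lost without mouse 3 (1.79, edgeR adjusted p = 0.0849). Ccnd2 went from 9.99 ± 10.4 CPM with 1 to 73.9 ± 22.9 CPM with 2 or more UMIs (2.87 ± 0.41), and Rilpl2, a Rab-interacting protein, from 12.5 ± 5.68 to 81.0 ± 44.2 CPM (2.78 ± 0.40). Rilpl2 was not called without mouse 3 (1.94, edgeR adjusted p = 0.106), and Nr4a1 (2.44 ± 0.50) was not called without mouse 2 (1.63, 0.0596). Cd83 had 457 ± 49.0, 575 ± 13.5 and 1036.7 ± 135 CPM (0.85 ± 0.09), with no overlap between the 3 levels.

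In the other direction Mxd4 had 87.2 ± 12.5, 63.7 ± 12.7 and 21.3 ± 6.08 CPM in cells with 0, 1 and 2 or more Myc UMIs (-1.55 ± 0.31 between the last 2, edgeR adjusted p = 0.0270). Its ranges at 0 and 1 UMI overlapped and those at 1 and 2 or more did not. Siglecg, an inhibitory receptor of B cells (-0.79), Traf5, a TNF receptor adaptor (-1.10), and Vpreb3, a B lineage protein (-0.68), were lower with more Myc UMIs. Without mouse 1 or mouse 3 none of these 4 was called, with adjusted p from 0.0534 (Mxd4 without mouse 1) to 0.193 (Traf5 without mouse 1). Of the NF-kB list 12 of 22 were higher (median 0.76), of immediate early genes 4 of 12, and of ribosome biogenesis 4 of 49 (median 0.47), against 1.02% of all genes higher.

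The LZtoDZ cells, scaled together with these sums and given as values with no test, had another order of the same genes. Their median depth was 19103 UMIs, far above that of the window. Ncl stood at 1807.7 ± 168 CPM, Npm1 at 3807.6 ± 111, Hspd1 at 844 ± 26.8, Srm at 388 ± 37.9 and Gnl3 at 178 ± 12.5 CPM, each above its level in LZ cells with 2 or more Myc UMIs (874 ± 130, 1350.9 ± 127, 263 ± 16.9, 117 ± 20.4 and 93.6 ± 23.7 CPM). Nfkbia (292 ± 95), Cd83 (194 ± 76.5), Cd69 (25.5 ± 10.9) and Nr4a1 (1.01 ± 0.90) stood below it. Mxd4 was at 6.36 ± 3.27 CPM, and Tfap4 at 31.4 ± 1.42 CPM against 9.88 ± 4.44 CPM in LZ cells with 2 or more Myc UMIs.

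**Figure D4:**
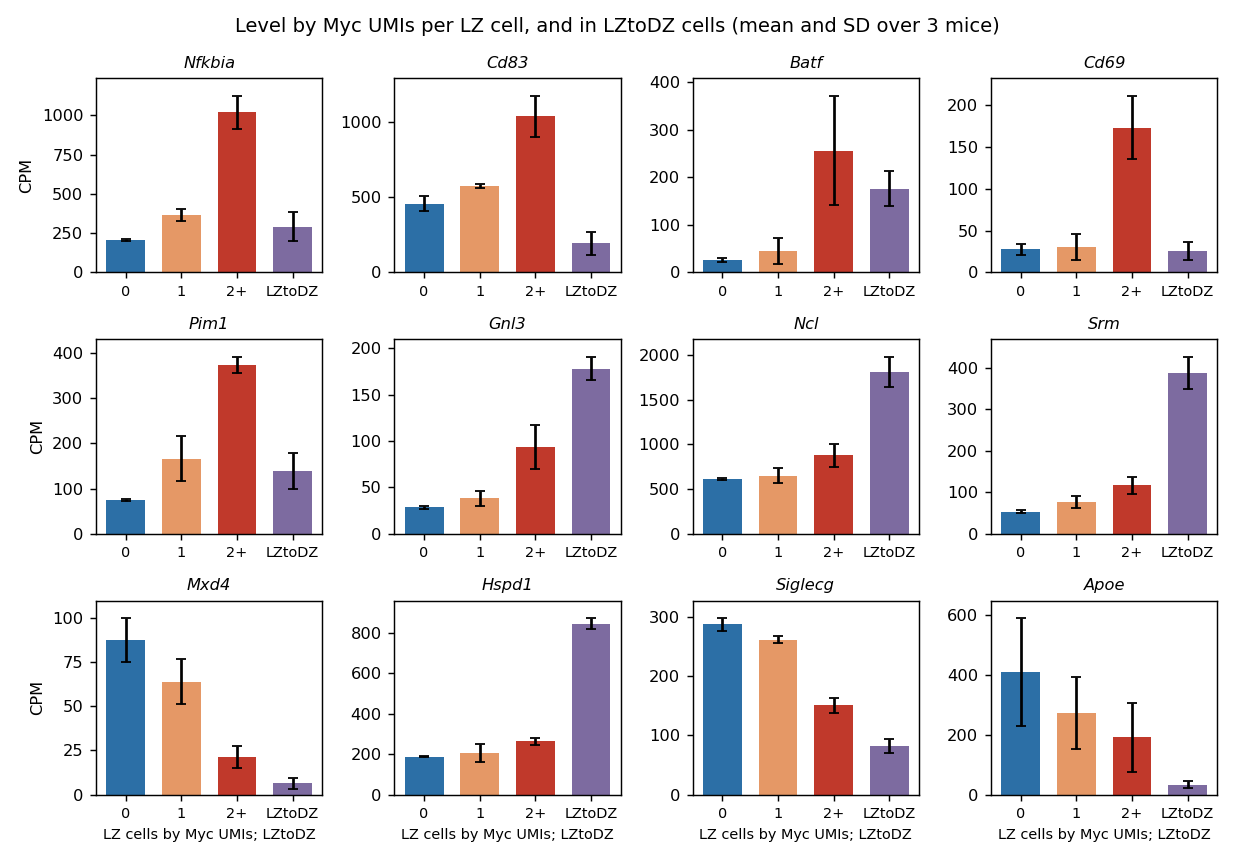
CPM of selected genes in LZ cells with 0, 1 and 2 or more Myc UMIs and in LZtoDZ cells, as mean and SD over 3 mice. Nfkbia climbs from 208 to 1018 CPM over the 3 LZ levels and stands at 292 CPM in LZtoDZ cells, while Ncl is at 613 to 874 CPM in LZ cells and 1807.7 CPM in LZtoDZ cells.

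The contrast by the same rule in DZ cells, 224 with and 2044 without a Myc UMI, called fewer genes. The Myc-positive cells of the zones were not alike in Myc count. At least 2 Myc UMIs were found in 41 of the 224 DZ cells, against 119 of the 293 LZ cells. The part of this in the differences between zones was not tested. Of 8420 genes tested in a fit of both zones, 36 were higher (0.428%) and 31 lower (0.368%) in DZ cells, 0.796% in all. In LZ cells this fit called 138 higher (1.64%) and 88 lower (1.05%), 2.68% in all. None of the 15 genes with the largest increase in LZ cells was called in DZ cells, where their median was 0.26 against 1.46 in LZ cells. Since these genes were picked for their increase in LZ cells, a larger value there is partly set by the choice. The difference between zones itself, an interaction term, was past edgeR's threshold for 53 genes (0.629%). Of these, 46 had a larger value in LZ cells (0.546%) and 7 a smaller one (0.0831%). Immunoglobulin genes made up 9 of the 46 and 6 of the 7. The term was also past the threshold for 12 of the 15. Tgif1 (adjusted p = 0.0673), Bcl3 (0.420) and Bcl2a1b (0.167) were not among them. The LZ values are those of the same cells as above.

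Pim1 had 262 ± 40.7 CPM in Myc-positive and 75.6 ± 2.48 CPM in Myc-negative LZ cells (SD, n = 3 mice), but 184 ± 16.1 and 171 ± 3.81 CPM in DZ cells. Its level in Myc-negative cells was thus higher in the dark zone, and its increase was 1.66 ± 0.13 larger in LZ cells (edgeR adjusted p = 3.40e-06). Nfkbia had 664 ± 62.1 and 209 ± 7.45 CPM in LZ cells and 106 ± 14.8 and 85.9 ± 1.20 CPM in DZ cells, a difference of 1.34 ± 0.12 (edgeR adjusted p = 2.00e-05). Nfkbid (10.5 against 7.28 CPM), Batf (19.9 against 15.1) and Tnfsf9 (17.6 against 13.6) were low in DZ cells with and without Myc. Pim1, Nfkbia, Icam1, Tnfsf9, Junb and Traf1 kept the difference between zones without each mouse. Nfkbid lost it without mouse 1 (0.0519), 2 (0.194) or 3 (0.0566), Batf without mouse 1 (0.0538) and Nfkbiz without mouse 3 (0.107). With depth matched, an alternative chosen after seeing the data, 4 of the 12 kept the call: Batf, Pim1, Nfkbia and Icam1. Others lost it with differences as large as before, such as Nfkbiz (2.42), Tnfsf9 (2.29) and Nfkbid (1.97). With at least 2 Myc UMIs against 0, also chosen after seeing the data, 8 of the 12 kept the call. Nfkbiz, Nfkbid, Siah2 and Junb lost it, and the Myc-positive DZ sums then held 11 to 15 cells. Cd83 was higher with Myc in both zones (0.80 in LZ, 0.51 in DZ cells), and its difference between zones of 0.29 was not called (edgeR adjusted p = 0.536).

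Cell cycle genes differed between zones in another way. Of 28 G2/M genes, 5 were higher with Myc in LZ cells in this fit (median 0.31) and 4 lower in DZ cells (median -0.36), and 9 had a larger value in LZ cells by the interaction test. Ube2c had 190 ± 35.2 against 126 ± 7.98 CPM in LZ cells and 279 ± 61.7 against 402 ± 51.1 CPM in DZ cells, a difference between zones of 1.09 ± 0.13 (edgeR adjusted p = 4.09e-04). It was higher with Myc in the light zone and lower with it in the dark zone. Of 30 S phase genes 12 were higher with Myc in DZ cells (median 0.42) and 1 in LZ cells (median 0.18), and 0 were called between zones. Mcm3 had 394 ± 68.4 against 252 ± 21.6 CPM in DZ cells (0.63 ± 0.07, edgeR adjusted p = 1.42e-04). The authors' phase calls moved the same way. They are calls on the same cells and may rest on some of the same genes, so they are no independent check. In DZ cells, 48.7% ± 3.59 of Myc-positive and 27.1% ± 2.07 of Myc-negative cells were in S and 18.4% ± 4.88 and 29.9% ± 0.468 in G2M. In LZ cells both shares were higher on the Myc-positive side (S 42.7% against 32.4%, G2M 14.3% against 7.42%).

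**Figure D5:**
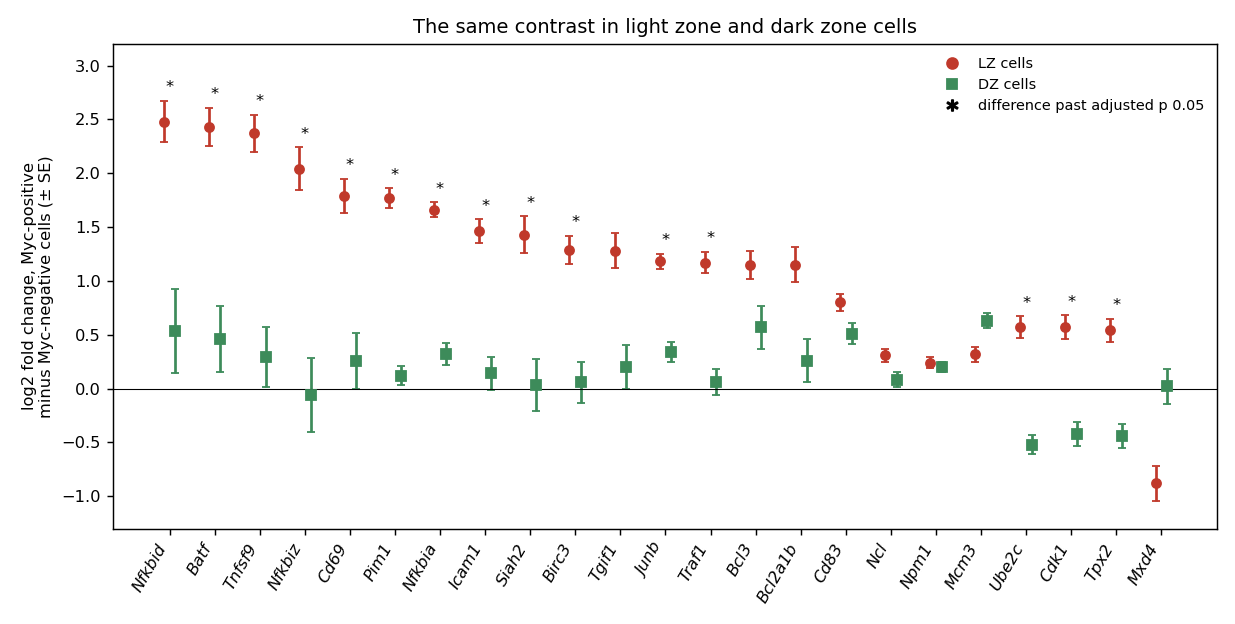
Log2 fold change (± SE) between Myc-positive and Myc-negative cells for LZ cells and DZ cells of the same depth window, with a star where the difference between zones passed the threshold. Nfkbid, Batf and Tnfsf9 are between 2.37 and 2.48 in LZ cells and between 0.29 and 0.53 in DZ cells, and Ube2c is 0.57 in LZ and -0.52 in DZ cells.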

How the data were processed

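The authors deposited raw UMI counts per gene and cell (13886 genes, 6000 cells), with no normalization, and a table of each cell's mouse, state, cluster, phase and scores. Each score, for example the activation score, is the authors' own, from genes not given in the sources used here. Per the submitters' processing notes, Cell Ranger and Seurat (no versions) and the builds GRCm38 and mm10 were involved. The sources used here do not give cell filters, the treatment of doublets or the map from cells to libraries, and no doublet caller was run. Cell states were taken as deposited.

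Counts were summed per mouse and side and tested with edgeR 4.0.16 in R 4.3.3 (TMM, filterByExpr, glmQLFit and glmQLFTest with mouse as a block, Benjamini-Hochberg, threshold 0.05). The test was tried on simulated counts first. DESeq2 1.42.0 was an alternative, and scipy 1.17.1 gave exact tests. CPM are scaled by TMM factors. Both sums of a pair come from 1 animal, and deviations from the side means correlated between the sums of a mouse (r = 0.364, 0.388 and 0.527 over 2873 genes). Between mice r was -0.25 to -0.158. Deviations of a gene sum to 0 over the mice of a side, so negative values between mice follow from positive ones within a mouse. In matched comparisons, Myc-negative cells were drawn by mouse and 500-UMI bin.

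Named genes were the 15 with the largest increase and the 10 with the largest decrease past the threshold, with at least 50 CPM in the higher side and 1 direction in 3 of 3 mice (139 and 81 genes qualified; immunoglobulin, predicted and sex-linked genes left out), up to 4 called members per list, a set of Myc-related genes named in every case, and up to 5 interaction genes per direction. A few genes that these rules name are not reported here. Other called list members and the genes named by Myc UMIs were picked with their values in view. The members and the 34 lists were chosen with earlier results of these data known. Plasma cell, NK cell, stromal and erythroid lists served as a check: summed plasma cell markers had 1743.4 to 1878.2 CPM in Myc-positive and 1866.0 to 2053.2 CPM in Myc-negative sums, NK markers at most 1.42 CPM, stromal at most 1.42 CPM and erythroid at most 23.8 CPM.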

Additional observations from a re-analysis of the deposited data

Results flagged for a closer look

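The difference by Myc status was not the same in the light and the dark zone for 53 genes by the interaction test of edgeR. Of these, 9 with a larger and 6 with a smaller value in the light zone were immunoglobulin genes. The 5 with the largest positive value at 50 CPM or more are given here. The difference, light zone minus dark zone on the log2 scale, was 2.10 ± 0.36 for Nfkbiz (adjusted p = 0.00918), 2.09 ± 0.31 for Tnfsf9 (0.00231), 1.97 ± 0.33 for Batf (0.00702), 1.95 ± 0.40 for Nfkbid (0.0285) and 1.66 ± 0.13 for Pim1 (3.40e-06). All 5 kept the sign in 3 of 3 mice. Nfkbiz, Tnfsf9, Batf and Nfkbid were at 8.61, 17.6, 19.9 and 10.5 CPM in Myc-positive dark zone cells, so their dark zone values rest on few UMIs.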

How the results depend on the processing

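All 15 genes with the largest increase passed the threshold under each alternative of the main comparison except Siah2 in G1 cells alone. Of the 10 with the largest decrease, 2 passed at matched depth, 2 with DESeq2, 3 with 5000 to 9000 UMIs, 1 at matched depth and phase and 1 in G1 cells. Higher and lower genes (190 and 127 as reported) numbered 90 and 31 without the replicate block of mouse pairs, under which all 15 were still called, 61 and 22 with DESeq2, 76 and 38 with 5000 to 9000 UMIs, 101 and 71 in cells thinned to 4000 UMIs, 45 and 14 at matched depth, 43 and 13 at matched depth and phase, 56 and 15 in G1 cells, 90 and 47 without cells with other-type RNA (184 and 114 with Apoe not counted, an alternative chosen after seeing the data), and 87 and 41 in the main clusters. Lower genes were 241 with no filter on low counts, 196 with no depth window and 45 with other states in the fit. Leaving out 1 mouse gave 150 to 171 higher and 101 to 129 lower genes.

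With no filter, the phase interaction called 31 and 24, the zone interaction 103 and 53 and the comparison by Myc UMIs 90 and 56. Without 1 mouse the phase interaction called 2 to 9 and 3 to 7, the zone interaction 32 to 67 and 8 to 19, and the comparison by Myc UMIs 25 to 58 and 11 to 30. At matched depth the phase interaction called 1 lower, the zone interaction 18 higher and the comparison by Myc UMIs 21 and 3. With at least 2 Myc UMIs the zone interaction called 14 lower. The phase and zone alternatives at matched depth and with 2 UMIs were chosen after seeing the data. Differences at matched depth were 6.45 points of cells in S or G2M (17.2 as reported), -0.137 points of IgG1 (-2.41), 0.0463 of activation score (0.0691) and -0.0476 on the light to dark zone scale (-0.0366).

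Direction turned in genes that were not called under that alternative: Cd86 (-0.01 with no window and in G1), Nfkb1 (-0.04, -0.05, -0.04, -0.06, -0.30, -0.01 and -0.05 without mouse 1 or 2, with no window, at matched depth, in G1, with 2 UMIs and in the main clusters, and 0.26 without mouse 3), Cdkn1b (0.23 in the main clusters), Mki67 (-0.16 without mouse 3 and 0.22 without mouse 1, -0.17 at matched depth, -0.19 with phase, -0.12 in G1, -0.14 with 2 UMIs), Cks1b, Ube2c, Cdk1 and Tpx2 in G1 (-0.24, -0.41, -0.19 and -0.40), Plk1 (-0.07), Rps27 (0.00) and Rpl37a (0.02) at matched depth and phase, and Cd74 (0.02 and 0.05 at matched depth, without and with phase). The cause was not tested. Depth limits the detection of Myc, so Myc-negative cells can include cells with Myc RNA. No scaling moved the median of all genes by over 0.1.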
